A study of Arabidopsis thaliana with 6 samples.

Results

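The gene models described here lie in the copy of mitochondrial DNA that sits in chromosome 2 of the nuclear genome of Arabidopsis thaliana. They were chosen by locus code: all genes of the deposited gene table with codes from AT2G07666 to AT2G07835 whose last digit is not 0. The rule found 79 gene models among 28387 genes. It was drawn up with results of the comparison of mutant and wild type leaves known, so the values below that set these gene models between the lines are a description and carry no test.

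A nuclear copy of organelle DNA arises when a piece of the mitochondrial or chloroplast genome becomes part of a chromosome. The copy on chromosome 2 of Arabidopsis holds sequence very close to that of the mitochondrial genome, so its annotated gene models include counterparts of respiratory chain genes, ribosomal protein genes, transfer RNA genes and many open reading frames with no known function. An array probe designed on such a sequence can bind RNA made in the mitochondrion as well as any RNA made from the chromosome.

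Leaves of a line whose PIP1;2 gene carries a T-DNA, atpip1;2-1, were compared with leaves of the wild type N-60000, with 3 Affymetrix arrays for each line. The plants had grown for 3 weeks in a greenhouse with no other treatment named, and total RNA of 5 plants was pooled for each array, 15 plants for each line. Arrays of a line are biological replicates by their titles, and atpip1;2-1 is a single insertion line. The design asks which leaf transcripts differ between the lines.

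The gene hit by the insertion, PIP1;2 (AT2G45960), encodes a water channel of the plasma membrane. It had log2 values of 5.16, 5.51 and 5.18 in the mutant and 8.73, 9.14 and 8.74 in the wild type. The groups did not overlap, and the mutant mean fell by 3.59 on the log2 scale (SE 0.18, n = 3 and 3, limma adjusted p = 0.000148; exact two-sided permutation p = 0.1, the smallest that 20 splits allow). Over genes, arrays correlated between 0.975 and 0.989, and their medians lay between 3.78 and 3.84. The 4 leaf markers had a mean log2 value between 7.21 and 7.54 on the mutant arrays and between 6.91 and 7.04 on the wild type arrays, and CAB2, 1 of these, stayed between 1.41 and 3.02. The means of the root, flower and seed markers, 2 each, all lay between 2.23 and 2.69. No marker passed the threshold in the limma fit, where 3 of 10 had an unadjusted p under 0.05 (12.2% of all genes did), and the part of leaf composition in the values below was not tested.

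All 79 gene models were found on chromosome 2 in the RefSeq table for assembly TAIR10.1. RefSeq lists 58 of them as protein-coding, 19 as transfer RNA genes and 2 as pseudogenes. It holds 128 codes that meet the rule, and the other 49, of which 44 are pseudogenes, were not analysed here. The run from the first to the last measured gene model in RefSeq order, both included, holds 182 genes. Of the measured genes in that run, 3 do not meet the rule: AT2G07599, AT2G07820 and AT2G07830. The lowest code inside the rule was AT2G07667, with a log2 fold change of 0.42 (SE 0.19), and the highest was AT2G07835, with 0.65 (SE 0.20). Just outside lay AT2G07640, with 0.44 (SE 0.23), and AT2G07981, with 0.67 (SE 0.31).

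The insertion gene models had, as a group, higher signal in the mutant leaves. A log2 fold change here is the mean of the 3 mutant arrays minus the mean of the 3 wild type arrays. Its median over the 79 gene models was 0.28, with quartiles of 0.10 and 0.57 and a range from -0.45 to 1.87, while the median over all genes was -0.01. The mutant mean was the higher in 69 gene models and the lower in 10, and over all genes it was the higher in 48.4%. Gene models at least 1.5-fold higher numbered 20, those at least 2-fold higher numbered 5, and 18 lay within 0.1 of 0 on the log2 scale.

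All 3 mutant arrays lay above all 3 wild type arrays in 37 gene models, where the share over all genes was 9.3%. They lay below in 2, where it was 9.24%, and the groups overlapped in 40. With limma on all genes and a Benjamini-Hochberg adjusted p under 0.05 as the threshold, 2 gene models passed, both higher in the mutant, and none passed as lower. Over all genes 0.342% passed in either direction and 0.187% as higher. Since the rule was drawn up with this contrast known, nothing is read from these counts. The gene models were brighter than most genes, with 61 of 79 above the 75th percentile of mean level. Among all genes above that percentile the median log2 fold change was 0.03 and 54.2% were higher in the mutant.

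**Figure D1:**
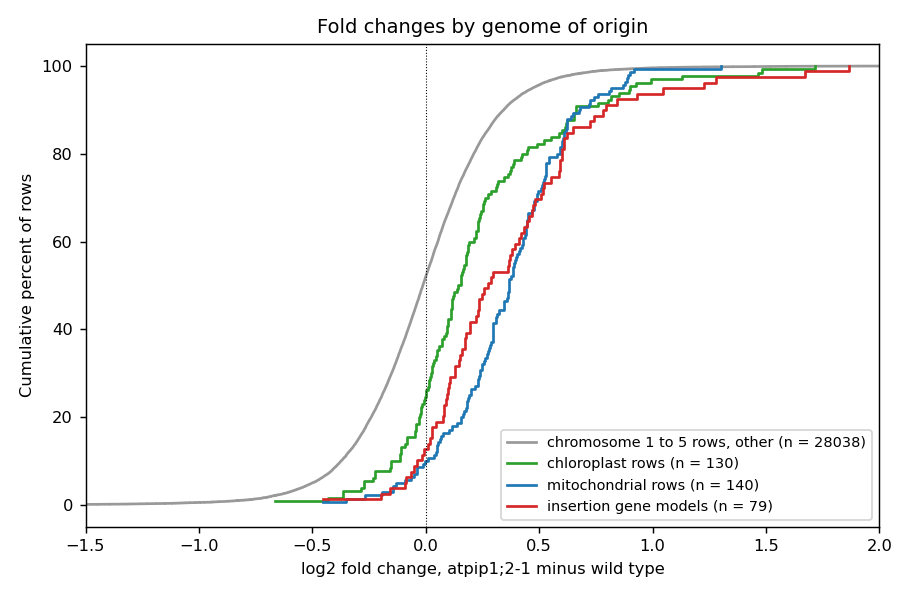
Cumulative percent of genes (vertical axis) by log2 fold change, atpip1;2-1 minus wild type (horizontal axis), for the 79 insertion gene models, 140 mitochondrial genes, 130 chloroplast genes and 28038 other genes of chromosomes 1 to 5. The curve of the insertion gene models (median 0.28) runs between those of the chloroplast genes (0.15) and the mitochondrial genes (0.37) up to its median, and the other chromosomal genes centre on -0.01.

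AT2G07678, a protein-coding gene model with no name in the tables used, had the highest fold change. Its log2 values were 7.71, 7.47 and 8.02 in the mutant and 6.02, 5.92 and 5.68 in the wild type. All mutant arrays lay well above all wild type arrays, by 1.87 on average (SE 0.19, n = 3 and 3). AT2G07768, also protein-coding and unnamed, had 6.38, 6.77 and 6.83 in the mutant and 5.20, 4.90 and 4.87 in the wild type. The groups were again apart, by 1.67 (SE 0.18). These were the 2 gene models past the threshold. AT2G07678 also passed with any single array left out, whereas AT2G07768 did not pass without mutant replicate 3 (fold change 1.58) or without wild type replicate 2 (1.63).

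AT2G07724 had values of 7.37, 6.86 and 7.93 in the mutant and 5.93, 5.92 and 6.46 in the wild type. The groups did not overlap, and the mutant arrays spread over a wider range; the fold change was 1.28 (SE 0.27). AT2G07739, with 2 probe sets that also name the chloroplast open reading frame ycf1, had 4.82, 4.0 and 4.72 against 3.98, 3.37 and 2.5. Its lowest mutant array exceeded its highest wild type array by little, and its fold change of 1.23 had an SE of 0.36.

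AT2G07698 had 8.87, 8.97 and 9.79 in the mutant and 8.08, 8.33 and 8.09 in the wild type, a fold change of 1.05 (SE 0.24). Mutant replicate 3 stood above the other mutant arrays. AT2G07676 had 8.06, 8.23 and 8.41 against 7.47, 7.65 and 6.78, a fold change of 0.93 (SE 0.23). Here wild type replicate 3 stood below the rest. AT2G07715 had 7.24, 7.17 and 7.0 against 6.45, 6.47 and 5.96, a fold change of 0.84 (SE 0.19), and its mutant arrays lay close together. In the second deposited table, with values per probe set, the only probe set naming AT2G07715 had a fold change of 0.12 (SE 0.15).

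ABCI4 (AT2G07681), named in RefSeq as a member of the ATP-binding cassette family, had 9.44, 9.66 and 10.31 in the mutant and 9.20, 9.11 and 8.77 in the wild type. Its groups were separate, with a fold change of 0.78 (SE 0.24). AT2G07835 had 8.97, 9.16 and 9.54 against 8.5, 8.37 and 8.85, again without overlap.

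**Figure D2:**
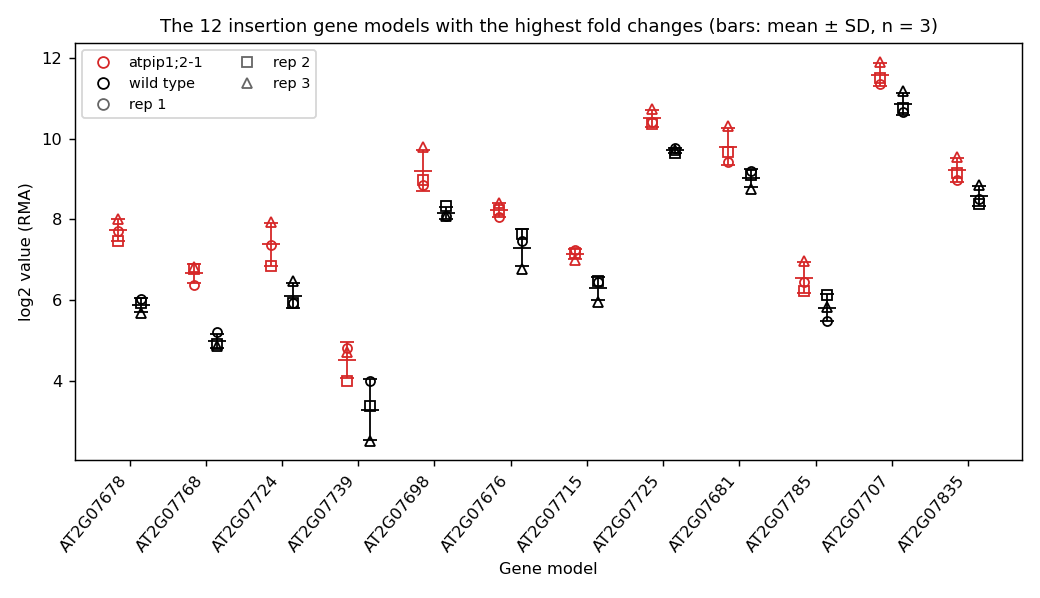
Log2 values (vertical axis, RMA) of the 12 insertion gene models with the highest fold changes (horizontal axis) on the 3 atpip1;2-1 arrays (red) and the 3 wild type arrays (black), with a marker shape for each replicate and bars for the mean ± SD. The groups did not overlap in any of the 12, and the gap was widest in AT2G07678 (1.87) and AT2G07768 (1.67).

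In the platform annotation 13 gene models shared a probe set with a named organelle gene, and they are named here after their values were seen. Their fold changes ran from 0.01 to 1.23 around a median of 0.46, and all 13 had the higher mean in the mutant. In 8 all mutant arrays lay above all wild type arrays, where the share over all genes was 9.3%. The value in the gene table did not always follow the shared probe set. AT2G07739, named with the chloroplast ycf1, is described above, and the others of the 13 are taken below by the role of the named gene.

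Among the respiratory genes, AT2G07718 and AT2G07727 were named with cob, which encodes cytochrome b of complex III. AT2G07718 had 10.08, 10.09 and 10.40 in the mutant and 9.62, 9.59 and 9.53 in the wild type, a fold change of 0.61 (SE 0.16). AT2G07727 had 11.75, 11.92 and 12.02 against 11.46, 11.40 and 11.29, a fold change of 0.51 (SE 0.16). In both, every mutant array lay above every wild type array.

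AT2G07701 and AT2G07702 were named with nad1, a subunit of complex I. AT2G07702 had 6.48, 6.50 and 7.11 in the mutant and 6.21, 6.41 and 6.37 in the wild type, and most of its fold change of 0.37 (SE 0.20) came from mutant replicate 3. AT2G07701 had a fold change of 0.30 (SE 0.17), also without overlap. AT2G07785, whose probe sets name nad1 and the ribosomal protein gene rps7, had 6.46, 6.23 and 6.98 against 5.47, 6.12 and 5.84, a fold change of 0.74 (SE 0.24). Its probe sets named with nad1 had 0.57, 0.00 and 0.22, and the one named with rps7 had 0.29.

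In the complex IV counterparts the groups overlapped in the gene table. AT2G07687, named with cox3, had 9.94, 9.79 and 10.34 in the mutant and 9.81, 9.54 and 9.36 in the wild type, a fold change of 0.46 (SE 0.20). Another probe set named with cox3 had 0.45 (SE 0.20) without overlap. AT2G07695, which shares a probe set with cox2, was dim, with 2.40, 2.03 and 2.82 against 2.67, 1.80 and 2.20. Its fold change of 0.19 (SE 0.26) followed a probe set that named no other gene. The probe set named with cox2 was bright, with 8.40, 8.29 and 8.19 against 8.34, 8.34 and 8.23. Its groups overlapped, with a fold change of -0.01 (SE 0.12). Another probe set named cox2 alone, with 10.18, 10.10 and 10.45 in the mutant and 9.26, 9.19 and 9.30 in the wild type. Its groups were apart, with a fold change of 0.99 (SE 0.14). AT2G07671, named with the ATP synthase ring subunit gene atp9, had 11.59, 11.61 and 11.87 against 11.59, 11.58 and 11.61. Apart from mutant replicate 3 its arrays were nearly level, and its fold change was 0.09 (SE 0.16). Another probe set named with atp9 had 9.69, 9.56 and 9.59 against 9.18, 9.33 and 9.15. There the groups did not overlap, with a fold change of 0.40 (SE 0.12).

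Of the ribosomal protein counterparts, AT2G07725, named with rpl5, had 10.41, 10.37 and 10.75 in the mutant and 9.77, 9.64 and 9.73 in the wild type. The groups were apart by 0.79 (SE 0.17). AT2G07773 and AT2G07675 were both named with rps12. AT2G07773 had 10.02, 10.09 and 10.01 against 9.40, 9.44 and 9.41, a fold change of 0.62 (SE 0.15) with tight groups. AT2G07675 lay between 10.95 and 11.21 on the 6 arrays with overlapping groups, and its fold change was 0.01 (SE 0.16). AT2G07734, named with rps4, had a fold change of 0.10 (SE 0.20) with overlapping groups. Another probe set named with rps4 had 0.52 (SE 0.17) without overlap. The gene values of these counterparts of ribosomal genes thus ranged from 0.01 to 0.79, but not all followed the shared probe sets. The probe sets named with rps12 named both AT2G07675 and AT2G07773 and had a fold change of 0.01. The value of AT2G07773 followed another probe set, at 0.63, that named no other gene. The probe sets named with rpl5 had 0.27 and 0.30.

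The 19 transfer RNA gene models carry the adaptors of protein synthesis for the amino acids given in their RefSeq synonyms. Their median log2 fold change was 0.28, with 14 higher and 5 lower in the mutant mean. The groups did not overlap in 7 that were higher (9.3% of all genes) and 1 that was lower (9.24%). AT2G07748, for tryptophan, was the highest, with 7.80, 7.55 and 7.92 in the mutant and 7.12, 6.96 and 7.36 in the wild type, a fold change of 0.61 (SE 0.18). The tyrosine gene models AT2G07753 and AT2G07761 shared 1 set of values, 5.73, 5.38 and 5.55 against 4.93, 4.71 and 5.21. Their fold change was 0.60 (SE 0.19). Other tyrosine gene models differed from these: AT2G07765 had a fold change of 0.24, and AT2G07745 was among the lowest of all. The 58 protein-coding gene models had a median of 0.27, with 53 higher, and the 2 pseudogenes, AT2G07742 and AT2G07778, had 0.37 (SE 0.15) and 0.13 (SE 0.15).

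The lowest value belonged to AT2G07758, a methionine transfer RNA gene model. Its log2 values were 4.78, 5.04 and 4.59 in the mutant and 5.58, 4.88 and 5.30 in the wild type. The groups overlapped, and the fold change was -0.45 (SE 0.21). AT2G07684, protein-coding, had 8.0, 8.03 and 8.06 against 8.31, 8.15 and 8.22, and AT2G07763, for cysteine, had 8.12, 8.06 and 8.23 against 8.36, 8.26 and 8.26. These were the only gene models of the 79 with every mutant array below every wild type array, with fold changes of -0.20 (SE 0.15) and -0.16 (SE 0.15). AT2G07706 and AT2G07745 both had -0.09, and AT2G07762, for proline, had -0.06, all with overlapping groups.

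For many of these gene models the array gave no value that was theirs alone. Identical values on all 6 arrays joined 20 of the 79 (25.3%) with a mitochondrial gene, against 1.81% of all genes that had the values of any other gene. The table held 18 sets of identical values that join chromosomal and mitochondrial genes, and each of the 18 held an insertion gene model. Seen from the mitochondrial genome, 22 of its 140 measured genes (15.7%) had the values of an insertion gene model. By type, 13 of the 19 transfer RNA gene models and 7 of the 58 protein-coding ones were affected. In these 20, RNA of the chromosome and of the mitochondrion cannot be told apart.

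The 7 protein-coding gene models of this kind were AT2G07675, with the values of ATMG00980, AT2G07691 with ATMG01310, AT2G07701 with ATMG00430 and ATMG01150, AT2G07702 with ATMG00440 and ATMG01140, AT2G07707 with ATMG00480, AT2G07713 with ATMG00540, and AT2G07718 with ATMG00590. AT2G07707 stood highest of these, with 11.37, 11.51 and 11.92 in the mutant and 10.66, 10.76 and 11.19 in the wild type. Its groups were separate, with a fold change of 0.73 (SE 0.21). AT2G07691 and AT2G07713 had 0.18 (SE 0.18) and 0.26 (SE 0.18), and their groups overlapped.

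The 13 transfer RNA gene models had the values of ATMG00800 (AT2G07752, glutamate), ATMG00250 (AT2G07758), ATMG00460 (AT2G07794, methionine), ATMG00230 (AT2G07757, serine), ATMG01340 (AT2G07755, methionine), ATMG00930 (AT2G07748), ATMG00350 (AT2G07762), ATMG00390 (AT2G07765) and ATMG00380 (AT2G07764, asparagine). AT2G07753 and AT2G07761 had those of ATMG00340 and ATMG00790, and the serine gene models AT2G07766 and AT2G07793 those of ATMG00420 and ATMG01160. AT2G07766 and AT2G07793 had 6.67, 6.96 and 7.45 in the mutant and 6.50, 6.18 and 6.62 in the wild type, a fold change of 0.59 (SE 0.22) with mutant replicate 3 highest. AT2G07757 and AT2G07752 had 0.52 (SE 0.19) and 0.45 (SE 0.20), and AT2G07794 and AT2G07755 had 0.36 (SE 0.17) and 0.28 (SE 0.18). AT2G07764 was bright and nearly level, with a fold change of 0.05 (SE 0.15).

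The 20 gene models with mitochondrial values had a median of 0.36, with 18 higher in the mutant. The other 59 had a median of 0.23, with 51 higher, and both gene models past the threshold were among them. Some of the 59 still followed a probe set named with a mitochondrial gene. For AT2G07671 (atp9), AT2G07687 (cox3), AT2G07727 (cob) and AT2G07734 (rps4), such a probe set lay within 0.1 of the gene value on all 6 arrays. The 59 are thus not free of mitochondrial signal. Whether the probes of the 59 match the mitochondrial genome was not tested, since neither probe sequences nor a genome were used here.

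The arrays of a group did not contribute evenly. For each gene model the mean of its 6 arrays was taken from each value, and the median of this deviation over the 79 gene models was 0.09, 0.05 and 0.38 on the mutant arrays and -0.17, -0.16 and -0.11 on the wild type arrays. All 3 mutant arrays thus lay above all 3 wild type arrays, with mutant replicate 3 far above the other two. It held the highest mutant value in 54 of 79 gene models (68.4%), where the share over all genes was 35.7%. Without mutant replicate 3 the median log2 fold change was 0.17 in place of 0.28, and 60 gene models in place of 69 had the higher mean in the mutant.

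The same array was the highest mutant array in 100 of the 140 mitochondrial genes (71.4%) and in 88 of the 130 chloroplast genes (67.7%). The median of its deviation was 0.35 over the mitochondrial genes, 0.12 over the chloroplast genes and -0.01 over the remaining genes of chromosomes 1 to 5. Its part in the result, beyond the values without it, was not tested.

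**Figure D3:**
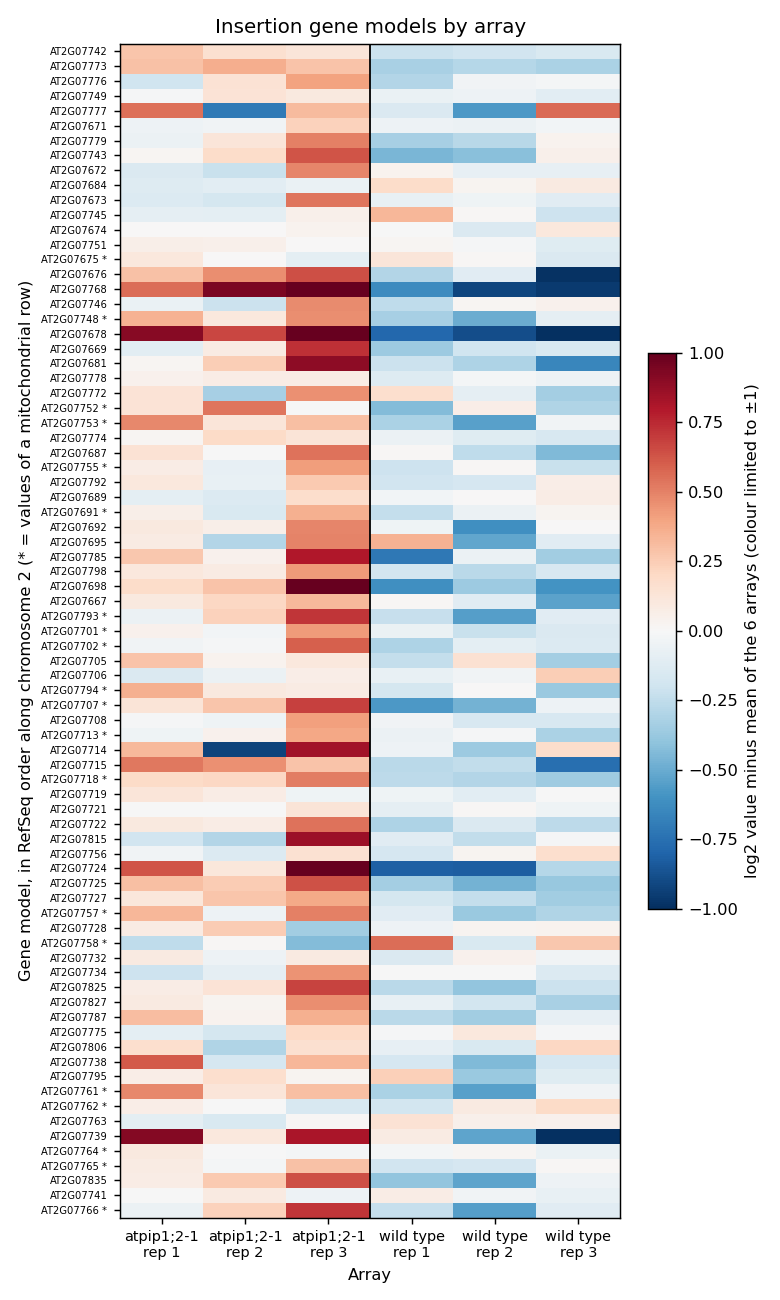
Log2 value minus the mean of the 6 arrays (colour, limited to ±1) for the 79 insertion gene models in RefSeq order (vertical axis) on the 3 atpip1;2-1 arrays and the 3 wild type arrays (horizontal axis), with an asterisk for the 20 gene models that have the values of a mitochondrial gene. The column of mutant replicate 3 is the reddest (median 0.38), and the wild type columns are mostly blue (medians from -0.17 to -0.11).

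Spread between arrays differed among the gene models. The median SD over the 79 was 0.23 in the mutant and 0.14 in the wild type, where all genes had 0.21 in each line. Most of the 79 were bright, and all genes above the 75th percentile of mean level had 0.17 in the mutant and 0.15 in the wild type. AT2G07714, the most variable in the mutant and singled out for its spread, had 5.43, 4.17 and 5.94 there and 5.05, 4.73 and 5.28 in the wild type. Its fold change of 0.16 (SE 0.38) was smaller than its standard error. AT2G07741, among the brightest, had 12.70, 12.80 and 12.66 against 12.78, 12.67 and 12.63, and its groups overlapped.

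Along chromosome 2 the higher values were spread over the whole insertion. Divided by RefSeq order into 27, 26 and 26 gene models, the medians were 0.22, 0.33 and 0.24, with 25, 24 and 20 gene models higher in the mutant. The 2 highest values, of AT2G07678 and AT2G07768, lay near each other in the first of these stretches, and the next 3, of AT2G07724, AT2G07739 and AT2G07698, lay in the others. AT2G07676, AT2G07768, AT2G07746, AT2G07748, AT2G07678 and AT2G07669 follow one another in this order, with fold changes of 0.93, 1.67, 0.13, 0.61, 1.87 and 0.47. In that run the glutamine transfer RNA gene model AT2G07746 stood low between higher neighbours.

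RefSeq lists 5 pairs of overlapping gene models, and no pair had identical values. AT2G07678 shares 343 bases with AT2G07669, whose log2 values were 7.29, 7.48 and 8.13 in the mutant and 7.04, 7.20 and 7.25 in the wild type. The fold changes were 1.87 for AT2G07678 and 0.47 for AT2G07669, and a second probe set of AT2G07678 had 0.37 (SE 0.20). ABCI4 (0.78) shares 72 bases with the pseudogene AT2G07778 (0.13), and AT2G07706 (-0.09) shares 81 bases with AT2G07794 (0.36). AT2G07815 (0.25, SE 0.28) shares 72 bases with AT2G07756 (-0.02, SE 0.17), a difference within their standard errors, and AT2G07763 (-0.16) shares 2 bases with AT2G07739 (1.23). The strand behind each value was not tested.

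**Figure D4:**
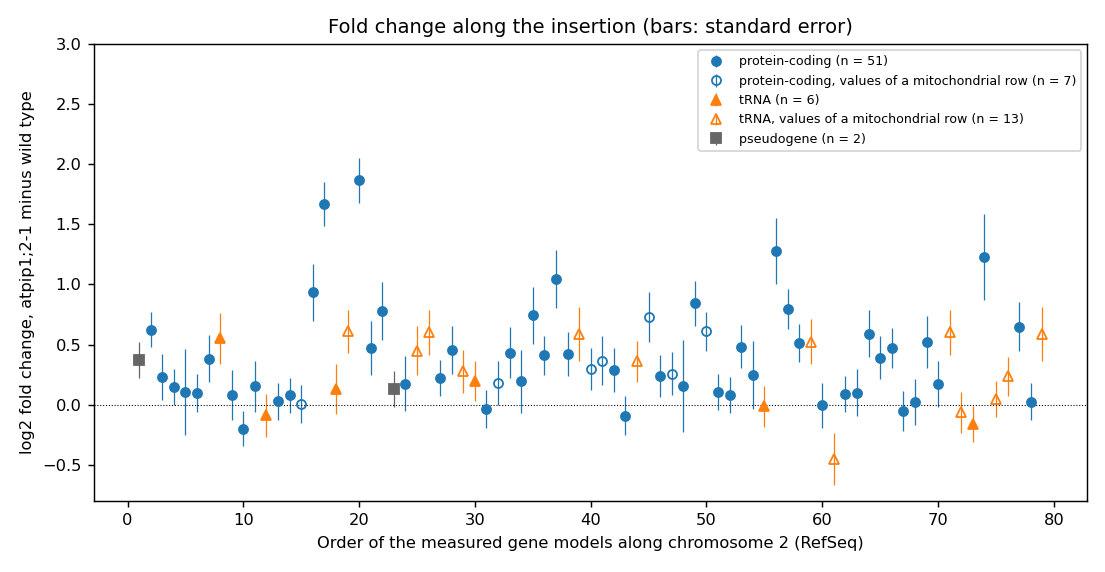
Log2 fold change, atpip1;2-1 minus wild type (vertical axis, bars for the standard error), of the 79 insertion gene models in their order along chromosome 2 in RefSeq (horizontal axis), by type, with open symbols for gene models that have the values of a mitochondrial gene. Most symbols lie above 0 from one end to the other, and the highest pair, at 1.67 and 1.87, lies in the first 27.

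Measured genes around the insertion showed little of the shift, but many of them were dim. The median log2 level was 2.12 for the 20 genes before it and 2.04 for the 20 after it. The 25th percentile of all genes was 2.20, and the insertion gene models had a median level of 6.80. Whether a shift of this size would show at such low levels was not tested. The 6 measured genes with codes of the same stretch that end in 0 had a median log2 fold change of 0.01, the 20 measured genes with codes before it -0.01 and the 20 after it 0.07. None of these 46 genes passed the threshold with limma, and 8 had an unadjusted p under 0.05, where 12.2% of all genes did. The largest value among those after it was that of AT2G10550, at 0.84 (SE 0.25, limma adjusted p = 0.225). MCM5 (AT2G07690), singled out as the lowest and a subunit of the helicase that licenses DNA replication, had 4.56, 4.51 and 4.46 in the mutant and 5.46, 5.02 and 5.36 in the wild type. Its groups did not overlap, with a fold change of -0.77 (SE 0.17, limma adjusted p = 0.123). AT2G07820 and AT2G07830, which end in 0 but lie among the insertion gene models in RefSeq order, had 0.20 (SE 0.20) and -0.03 (SE 0.15).

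The exception was AT2G07599, which RefSeq also places among the insertion gene models although its code lies below the rule. It had 3.37, 4.66 and 5.54 in the mutant and 2.98, 2.60 and 2.66 in the wild type. The groups did not overlap and the mutant arrays spread widely, and the fold change of 1.77 had an SE of 0.44 (limma adjusted p = 0.162). The annotation names AT2G07599 on a probe set that also names AT2G07696, rps7 and the insertion gene model AT2G07785. That probe set did not have the values of AT2G07599. It was brighter, with 7.70, 7.75 and 8.07 in the mutant and 7.41, 7.62 and 7.61 in the wild type, a fold change of 0.29 (SE 0.15).

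Set beside the genes of the mitochondrial genome itself, the insertion gene models had a lower median and higher single values. The 140 mitochondrial genes ranged from -0.45 to 1.30 around a median of 0.37, with 126 higher in the mutant. In 82 all mutant arrays lay above all wild type arrays, where the share over all genes was 9.3%. In 1 they lay below, where it was 9.24%. Without the 22 genes that share values with an insertion gene model the median was also 0.37. With limma, 1 mitochondrial gene passed the threshold, where 60 of the 140 had an unadjusted p under 0.05 and 12.2% of all genes did. This was ATMG00220, of the list for complexes III and IV, with 11.61, 11.57 and 12.04 in the mutant and 10.51, 10.42 and 10.39 in the wild type. Its groups were far apart, with a fold change of 1.30 (SE 0.18, limma adjusted p = 0.0219); with any single array left out it no longer passed.

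Functions of mitochondrial genes were assigned by locus code from general knowledge, since the tables used do not annotate these codes. The 13 measured complex I genes had a median of 0.62 and were all higher in the mutant mean. The 4 genes of complexes III and IV had a median of 0.66, and the 6 ATP synthase genes 0.58, with 5 higher. The 6 genes of cytochrome c maturation and mttB had 0.35 and the 7 genes of the ribosome and matR 0.30, all higher. The 3 ribosomal RNA genes had 0.08 and the other 101 mitochondrial genes 0.36, with 88 higher. Apart from ATMG00220 no gene of these lists passed the threshold, where the unadjusted p was under 0.05 in 10 of 13 genes of complex I, 2 of 4 of complexes III and IV, 5 of 6 of ATP synthase, 3 of 6 of cytochrome c maturation and mttB, 3 of 7 of the ribosome and matR, 0 of 3 ribosomal RNA genes and 37 of the other 101. The highest values of the smaller lists belonged to ATMG01190 (0.88) and ATMG00480 (0.73) for ATP synthase, ATMG00900 (0.54) and ATMG00110 (0.44) for cytochrome c maturation and mttB, ATMG00290 (0.51) and ATMG00080 (0.45) for the ribosome and matR, and ATMG01380 (0.30) and ATMG00020 (0.08) for ribosomal RNA.

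After ATMG00220, the next highest mitochondrial gene was ATMG00270, of the complex I list, which had 9.35, 9.29 and 9.57 in the mutant and 8.58, 8.58 and 8.30 in the wild type, a fold change of 0.92 (SE 0.17, limma adjusted p = 0.0666). ATMG00060, also of that list, had 0.89 (SE 0.17, limma adjusted p = 0.0727). ATMG00400 and ATMG00940, which are in none of the lists by function, had 0.90 (SE 0.20, limma adjusted p = 0.123) and 0.89 (SE 0.19, limma adjusted p = 0.108). The lowest of all 140 mitochondrial genes were ATMG00250 (-0.45), ATMG00660 (-0.35) and ATMG01050 (-0.27), none past the threshold, and the values of ATMG00250 are those of AT2G07758.

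Nuclear genes that act on mitochondria showed no such shift as groups. The 10 genes of mitochondrial DNA upkeep and transcription centred on a median of 0.00, with 5 higher, and the groups overlapped in all 10. The largest of these values were those of the organelle DNA polymerase POLGAMMA1 (AT3G20540), at -0.41 (SE 0.21), and of MGP3 (AT1G68990), at 0.18 (SE 0.24). The 7 genes known to rise on mitochondrial dysfunction had a median of 0.05. In 3 the mutant arrays lay below the wild type arrays, where the share over all genes was 9.24%. DIC2 (AT4G24570), a dicarboxylate carrier, had 2.29, 3.04 and 2.21 in the mutant and 3.30, 3.13 and 4.19 in the wild type, a fold change of -1.03 (SE 0.31, limma adjusted p = 0.238). NDB2 (AT4G05020), an alternative NADH dehydrogenase, had -0.89 (SE 0.23, limma adjusted p = 0.168). None of these 17 genes passed the threshold with limma, and 3 had an unadjusted p under 0.05, all in the second list, where 12.2% of all genes did.

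The 130 chloroplast genes had a median of 0.15, with 98 higher in the mutant. All mutant arrays lay above all wild type arrays in 63 (9.3% of all genes) and below in 12 (9.24%). With limma 4 passed the threshold, all higher, where 0.187% of all genes passed as higher. These were ATCG00110 (1.72), ATCG00220 (1.13), ATCG00700 (1.48) and ATCG01020 (1.00). In pooled leaf RNA, a change in the number of cells, organelles or genome copies and a change in RNA made per copy cannot be told apart.

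A second deposited table of the same arrays gave values per probe set, with a probe set near the gene value for only some gene models. It is not independent of the gene table. Of its 38408 probe sets, 93 named 1 or more of 57 insertion gene models. Their median log2 fold change was 0.30, with 82 of 93 higher in the mutant, while the median over all probe sets was -0.02. None of the 93 passed the threshold with limma over all probe sets, where 0.00781% did, and 33 had an unadjusted p under 0.05, where 11% of all probe sets did. The 62 probe sets that named 1 insertion gene model and no other gene had a median of 0.27, and the 31 that named other genes too had 0.37. Naming no other gene did not make a probe set specific to the chromosome. Those of AT2G07691, AT2G07707 and AT2G07713 named no other gene, yet these gene models had the values of mitochondrial genes. The 21 probe sets that named only mitochondrial genes such as nad, cox, atp1 and matR genes were all higher, by 0.07 to 0.99, with a median of 0.47.

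Different probe sets of a gene model often differed. For 35 of the 57 gene models a probe set lay within 0.1 of the gene table on all 6 arrays, and for the other 22 none did. Of the 30 gene models with 2 or more probe sets, 7 had identical values throughout, and in 23 the fold changes spread by 0.01 to 1.5, with a median spread of 0.30. In 4 gene models the probe sets lay on both sides of 0.

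AT2G07678, the highest of all, was named by 2 probe sets, chosen for a closer view after their values were seen. The first had 7.72, 7.47 and 8.03 in the mutant and 6.02, 5.92 and 5.69 in the wild type, a fold change of 1.86 (SE 0.18). The second had 7.95, 7.91 and 8.45 against 7.92, 7.73 and 7.55, with overlapping groups and a fold change of 0.37 (SE 0.20). The gene table followed the first.

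AT2G07727 showed the same kind of split. A probe set named with cob had 11.75, 11.92 and 12.02 in the mutant and 11.45, 11.39 and 11.29 in the wild type (0.52, SE 0.13), and the gene table gave AT2G07727 nearly these values. A second had 11.61, 11.57 and 12.06 against 10.50, 10.42 and 10.39 (1.31, SE 0.17), nearly the values of ATMG00220. AT2G07768, by contrast, was named by 1 probe set, with a fold change of 1.67 (SE 0.18) in both tables.

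The 4 probe sets of AT2G07739 had fold changes of 1.22, 0.90, 0.72 and -0.12. The gene table followed the first of these, which named no other gene, and the second and the third were the ones named with ycf1. AT2G07722 had probe sets at 0.49 and -0.14, and AT2G07751 at 0.09 and -0.35. AT2G07725 had 0.27 and 0.30 in its 2 probe sets and 0.79 in the gene table, so that none of its probe sets matched its gene value. AT2G07715 had 1 probe set, with 7.26, 7.26 and 7.68 in the mutant and 7.31, 7.29 and 7.26 in the wild type. Its groups overlapped there, with a fold change of 0.12 (SE 0.15) against 0.84 in the gene table.

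**Figure D5:**
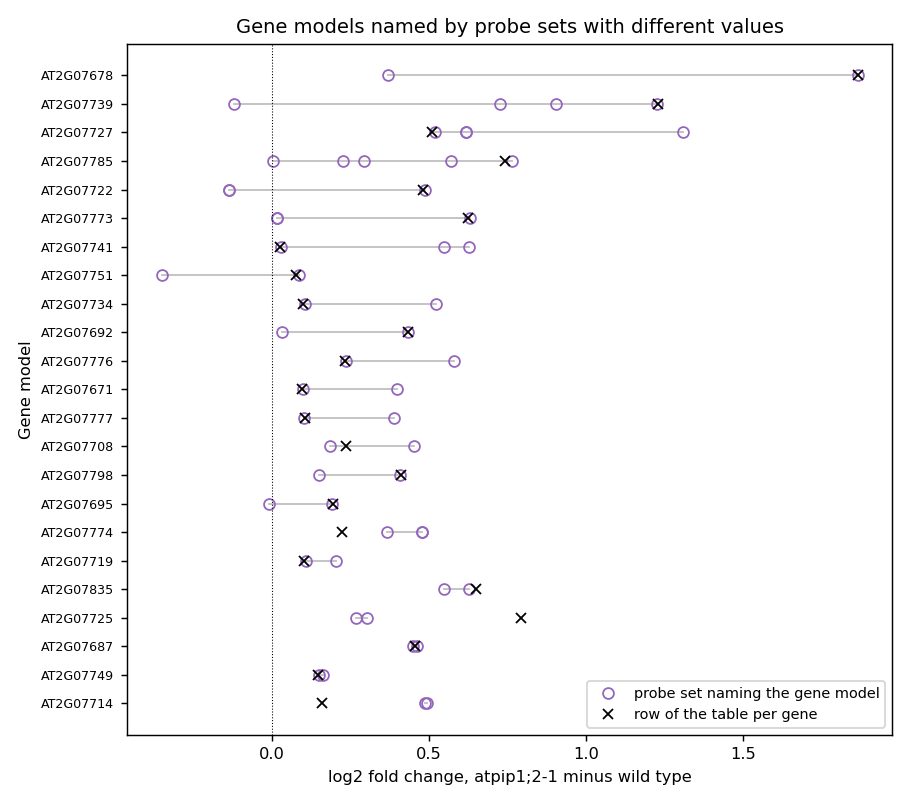
Log2 fold change, atpip1;2-1 minus wild type (horizontal axis), of each probe set that names 1 of the 23 insertion gene models with differing probe sets (circles; vertical axis, gene model), with the value of the gene table (cross). The lines are longest for AT2G07678 (0.37 and 1.86) and AT2G07739 (-0.12 to 1.22), and 4 lines cross 0.

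Averaged per gene model over probe sets that name no other gene, the second table held 47 insertion gene models. Their median log2 fold change was 0.27, with 40 higher in the mutant, and the same 47 had a median of 0.24 with 42 higher in the gene table. The sign was the same in both tables in 45. AT2G07691, AT2G07707 and AT2G07713, which had the values of mitochondrial genes, are among the 47, so these values are not those of chromosomal RNA alone. With limma, 1 of the 47 passed the threshold, AT2G07768, where 0.195% of the genes so named did. AT2G07678, averaged over its 2 probe sets, had a fold change of 1.12 in place of 1.87 and did not pass.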

How the data were processed

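Leaf RNA of 3 atpip1;2-1 and 3 wild type arrays was compared. The authors deposited a table of log2 values per gene and another of log2 values per probe set. The submitters' processing notes name RMA and Partek, without versions; the grouping of probes by locus code, the probe annotation and the genome build are not stated in the sources used here. That the second table is on a log2 scale was inferred from its values. Since probes can be shared by several loci, genes with identical values on all 6 arrays were counted. The number of arrays, 3 a group, limits the precision.

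Groups came from the labels. Log2 values were fitted for all 28387 genes with limma 3.58.1 (lmFit and eBayes, two-sided, R 4.3.3), with Benjamini-Hochberg adjustment and a threshold of 0.05, no filter and no covariate; the script was tested on simulated data. PIP1;2 had an exact permutation test besides. The labels give no scan date or slide, so no batch was tested. Gene types, names and order came from RefSeq (TAIR10.1), whose coordinates are not printed because the build behind the arrays is unknown. The platform annotation names 1 gene for 16722 probe sets, several for 759 and none for 20927. The gene models and gene lists were chosen with earlier results of these data known. Gene models are named if past the threshold, among the 12 highest or 6 lowest, or paired with a mitochondrial gene; others are named where the text says so, at the edges of the rule, or for the contrast they make. Of mitochondrial genes those past the threshold, the 5 highest and the 3 lowest are named, and of lists those past the threshold or the 2 of largest size. Pairs were to come from protein alignment, which was not run because no protein table was used here; identical values and shared probe sets took its place. Alternatives were other filters, spreads, weights, normalizations and thresholds, the second table, a replicate block and each array left out; identical genes counted singly and gene models with mitochondrial values left out were added after seeing the data.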

Additional observations from a re-analysis of the deposited data

How the results depend on the processing

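Over the alternatives run, the median of the insertion gene models stayed above 0, from 0.17 to 0.39 when 1 array was left out, and that of the mitochondrial genes from 0.26 to 0.42; both were lowest without mutant replicate 3. Gene models higher in the mutant numbered 60 to 71 of 79 with 1 array left out and 40 of 47 in the table per probe set. Calls moved more. Over all genes, 97 passed in limma, 14 to 48 with 1 array left out, 196 without the dimmest 50% of genes, 32 in the table per probe set, 375 with a variance trend and robust fitting, 191 at a threshold of 0.10 and 0 without moderation of the spread (3076 at an unadjusted p under 0.05). Of the insertion gene models 2 passed, 1 to 2 with 1 array left out, 11 with a variance trend and robust fitting, 1 in the table per probe set and 0 without moderation (25 unadjusted). AT2G07678 passed with each array left out; AT2G07768 did not without mutant replicate 3 (adjusted p = 0.0593) or wild type replicate 2 (0.0511). Of the mitochondrial genes 1 passed, 2 with array weights and without the dimmest 25%, 9 without the dimmest 50%, 22 with a variance trend and robust fitting, 5 at a threshold of 0.10, 0 without moderation (61 unadjusted) and 0 to 0 with 1 array left out (37 to 57 unadjusted). Replicate numbers did not pair the arrays (correlations of 0.008, 0.050 and 0.075); with the replicate number as a block 45 genes, 2 insertion gene models and 0 mitochondrial genes passed (61 unadjusted). Without the gene models that have mitochondrial values the median was 0.23 and 51 of 59 were higher; with identical genes counted singly it was 0.26. For the 35 gene models named by rule, 485 values under 15 settings counted as unchanged. These kept their side of the threshold and, if not past it, lay within the pooled SD of the arrays from the main value. Of the others, 8 passed that had not, 5 no longer passed, 4 moved by more than that SD and 0 changed sign while past the threshold. Of all 79, 11 changed sign without mutant replicate 3. The protein alignment and its alternatives of 70% identity and 80% coverage were not run. The table per probe set names no gene by a mitochondrial code and gave no value for those genes. The causes of these moves were not tested.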
